A study of Papio papio with 23 samples.

Results

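The 200 brightest long noncoding RNAs of the array in baboon whole blood are described here. They were chosen by measured brightness among the array's gene names that begin with XLOC_ or lincRNA:, which cover 11836 probes and 8404 names. A name was eligible when 1 of its probes was marked well above background by the scanner software on all 23 arrays, which held for 1355 names (16.1%). Each eligible name was represented by its brightest probe, and the 200 names with the highest mean level were kept. A level is the log2 signal minus the log2 of that array's 75th percentile, so 0 is the 75th percentile of the array. All 200 names begin with XLOC_, 81 of them with XLOC_l2_, and no lincRNA: name was bright enough. Brightness and detection on every array chose the set, so both are given as description, and a transcript that fell to background on any array could not belong to it.

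The arrays carry human probes and were hybridised with RNA from peripheral whole blood of adult male baboons (Papio papio), 1 array per sample. The 5 baboons of H0 were sampled before any irradiation. The irradiated baboons, 4 in H1-2 and 5 in H2-3, were sampled on day 1 and again on day 2, and the names give the severity of the haematological acute radiation syndrome (HARS) that followed. Every irradiated animal was exposed under anaesthesia to gamma rays from a 60Co source, over the whole or only part of the body, at an equivalent whole-body dose of 2.5 or 5 Gy that the labels do not assign to single animals. Neither genotype nor individual age is labelled, and the sources used here do not say whether the H0 animals were later irradiated.

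Long noncoding RNAs are transcripts that are made much like messenger RNAs but yield no known protein. Some act in the nucleus, where they hold proteins together, guide chromatin regulators or bind transcription factors, and others act in the cytoplasm on RNA stability. Most are restricted to few cell types, and in blood their levels follow cell type and activation state. They change faster in sequence between species than coding genes, so a human probe may bind its baboon counterpart poorly or bind a related transcript.

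The probe sequences below are those of the 2 brightest names, of 1 further name that shares a long run with a probe of a named gene, and of 5 names whose levels the comparisons turn on. Each is 60 bases, 5′ to 3′, as the scanner files give it, with positions on hg19 from the same files. Capitals mark bases that are identical, on the same strand, to a run of at least 20 bases in the probe of a named gene (one with a RefSeq transcript accession on the array), and sequences wholly in lower case share no such run with another probe, which leaves genes probed elsewhere in their transcript unread.
XLOC_l2_012953: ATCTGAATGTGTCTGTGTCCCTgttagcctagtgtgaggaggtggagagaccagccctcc
XLOC_l2_015885: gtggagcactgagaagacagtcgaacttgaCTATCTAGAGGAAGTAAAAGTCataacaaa
XLOC_l2_002910: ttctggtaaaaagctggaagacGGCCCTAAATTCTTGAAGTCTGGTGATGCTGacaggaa
XLOC_l2_007062: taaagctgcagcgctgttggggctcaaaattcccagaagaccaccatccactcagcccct
XLOC_l2_012911: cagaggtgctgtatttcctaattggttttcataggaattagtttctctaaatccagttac
XLOC_l2_009029: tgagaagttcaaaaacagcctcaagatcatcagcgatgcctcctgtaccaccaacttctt
XLOC_l2_004771: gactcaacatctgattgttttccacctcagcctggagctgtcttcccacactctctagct
XLOC_l2_008560: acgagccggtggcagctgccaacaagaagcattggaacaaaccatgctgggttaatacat

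The brightest name, XLOC_l2_012953 at chr6:31349699-31349758 on the minus strand, shares 22 bases with the probe of HLA-J, a class I major histocompatibility pseudogene. The second, XLOC_l2_015885 at chrY:10036620-10036679 on the plus strand, shares 22 bases with the probe of RN18S1, an 18S ribosomal RNA. XLOC_l2_002910 at chr12:17144740-17144925 (plus strand), ranked 25, shares 31 bases with a probe of EEF1A1, the elongation factor that carries tRNA to the ribosome. In all, 8 of the 200 probes shared such a run with a named gene's probe, 1 of them on the opposite strand only.

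The 200 probes lie on 24 human chromosomes, 16 of them on chromosome 1 and 3 on Y, with 2 on unplaced sequence and 1 without a position. By strand, 104 are on plus and 95 on minus. Their median GC content was 45%, with quartiles of 41.7 and 53.3%, against a median of 41.7% and quartiles of 36.7 and 45% in the 11462 probes of the other long noncoding names. A probe of a named gene lay within 5 kb of 29 members (14.5%), against 9.3% of the other long noncoding probes, and 18 of the 29 were on the same strand. The array's own description calls 156 of the 200 a lincRNA of the Broad Institute catalogue. It gives similarity to a protein for 15. The word ribosomal occurs in the description of 2 of the 200 (1%), against 0.1% of all probes of the other long noncoding names.

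Mean levels over the 23 arrays ran from 11.51 for XLOC_l2_012953 down to 2.59, a 486-fold range of signal, with a median of 4.01. Signals of different probes depend on probe affinity as well as RNA amount, so this order ranks probes and not transcripts. After XLOC_l2_012953 came XLOC_l2_015885 at 11.18, XLOC_l2_015478 at 11.16, XLOC_013489 at 10.64 and XLOC_000346 at 10.42. The next 5 were XLOC_006188 (10.21), XLOC_l2_013420 (9.79), XLOC_l2_005557 (9.36), XLOC_002643 (8.83) and XLOC_l2_007876 (8.72). At the lower edge, XLOC_009898 at 2.5903 and XLOC_001246 at 2.5865 were the last names inside. XLOC_000480 at 2.5733 and XLOC_009524 at 2.5615 were the first outside, so the edge falls within a continuous distribution. No member had a saturated spot on any array.

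Members differed widely in how far they moved between arrays. The range from the lowest to the highest array had a median of 2.07 log2 units, was under 1 unit for 10 names and over 3 units for 57. XLOC_l2_015478, the third brightest, kept within 0.78 units, from 10.73 to 11.51 over all 23 arrays. At the other end, XLOC_l2_007062 spanned 7.85 units, from -1.73 to 6.12.

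Much of this movement was shared, and 2 arrays lay at its ends. The array H0 replicate 1 held the highest value of 93 of the 200 members, and H2-3 day 2 replicate 5 held the lowest value of 101. Between these 2 arrays 155 members were higher in the H0 array, by a median of 1.64 over all 200. The members' median level was 4.81, 4.29, 4.01, 3.71 and 3.86 on the 5 H0 arrays. It was 4.29, 3.99, 4.24 and 4.34 on the H1-2 day 1 arrays, and 4.14, 4.30, 4.49, 4.36 and 4.06 on the H2-3 day 1 arrays. On day 2 it was 3.51, 3.59, 4.44 and 3.96 in H1-2, and 4.31, 4.04, 3.84, 3.61 and 3.20 in H2-3. The day 1 arrays were close together, while H0 and both day 2 groups were spread over more than 0.9 units, and all groups overlapped.

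**Figure D1:**
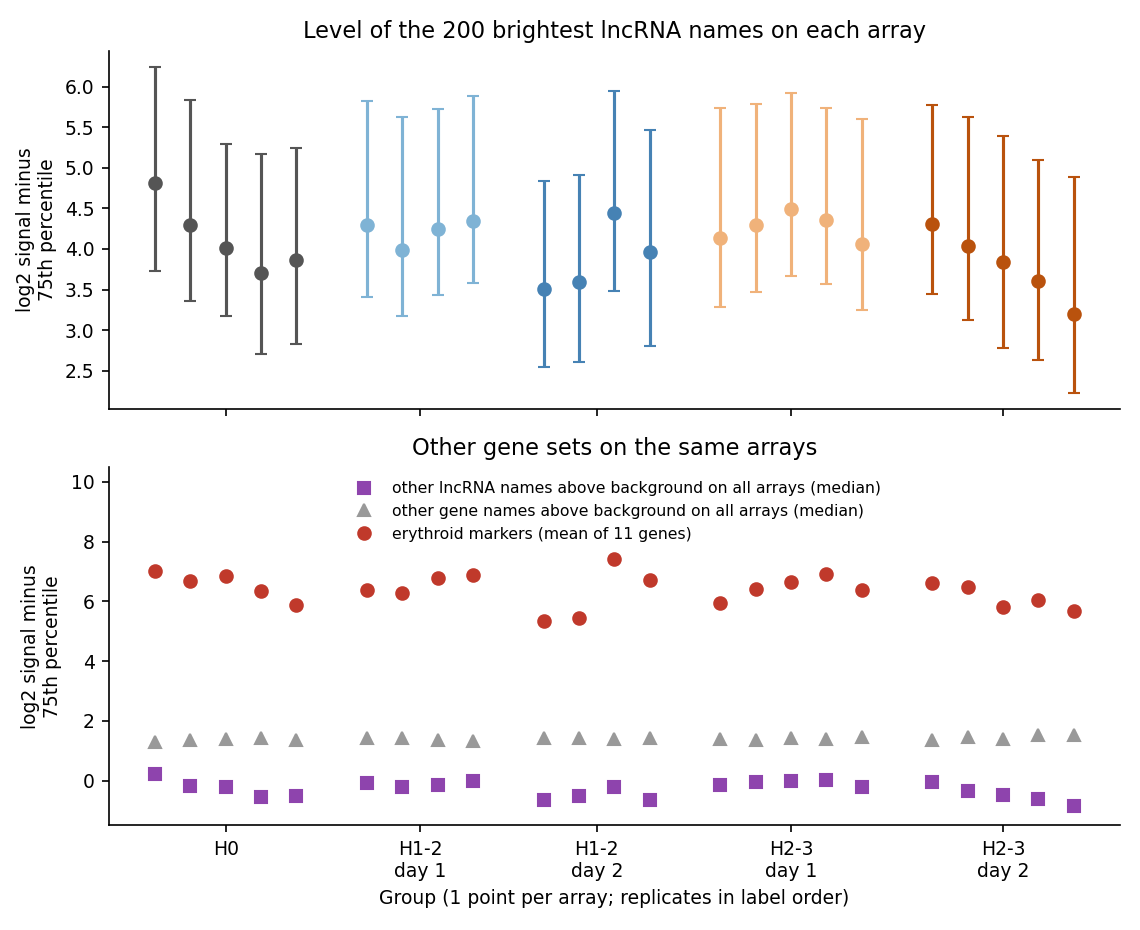
Median level of the 200 names on each array with its quartiles (upper panel), and on the same arrays the medians of 2 other probe sets and the mean of 11 erythroid marker genes (lower panel); both y axes are log2 signal minus the array's 75th percentile. The first H0 array is highest at 4.81 and the last H2-3 day 2 array lowest at 3.20, while the median of the other gene names stays between 1.29 and 1.54.

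The other 1151 long noncoding names above background on all arrays and in the fit moved along, with a median of 0.21 on H0 replicate 1 and -0.86 on H2-3 day 2 replicate 5. The median of all other gene names above background everywhere stayed between 1.29 and 1.54. The mean of 11 erythroid marker genes, red cell transcripts that include the globins, was 7.01 on H0 replicate 1 and 5.68 on H2-3 day 2 replicate 5. The beta-globin gene HBB, which is among the 11, was alike on these arrays at 12.47 and 12.49. Over the H0 arrays the erythroid mean was 7.01, 6.7, 6.84, 6.36 and 5.87, which is not the order of the members' medians. On H1-2 day 2 it was 5.35, 5.46, 7.43 and 6.71, with the third array the highest, as for the members. H0 replicate 1 also had the lowest mean of 17 neutrophil marker genes of all arrays, 2.55, against 3.75 to 5.59 on the other H0 arrays. The part of red cell RNA and of the mix of white cells in these levels was not tested. In whole blood, fewer cells of a type and less RNA per cell cannot be told apart.

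Across the 5 groups, 36 of the 200 members differed by limma's moderated F test at a Benjamini-Hochberg adjusted p under 0.05, which is 18%, against a background of 26.4% of all 21128 gene names tested. The share was 23.7% among the other long noncoding names above background on all arrays. The 10 members with the smallest p were XLOC_l2_009029, XLOC_l2_008560, XLOC_l2_012911, XLOC_001246, XLOC_l2_007062, XLOC_l2_004771, XLOC_l2_012081, XLOC_l2_001889, XLOC_l2_015812 and XLOC_l2_009292. The count was 80 without H1-2 day 2 replicate 3, 72 without H2-3 day 2 replicate 1, and 23 without H2-3 day 1 replicate 3 or 4 or H2-3 day 2 replicate 4 or 5. In fits that leave out an array or change the setting, here and below, calls were counted for members only. Such counts therefore have no share of all names beside them. In what follows, rose and fell are used of members past the same adjusted threshold in the named comparison.

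Most calls were made on day 1 in H2-3, the more severe category. There 30 of 200 members differed from H0 by limma (15%, against 28.4% of all names), 26 of them higher and 4 lower. Of all names 15% were higher and 13.5% lower. Without H0 replicate 5 the count of members was 19, and without H0 replicate 1 it was 23. The split depends on the scaling: it was 15 higher and 14 lower with quantile normalisation, 15 and 13 by the deposited values, and 15 and 11 when the 75th percentile was taken over only the probes above background on all arrays. Of the 30, 19 were called in the same direction with quantile normalisation and in the deposited table. The median difference of the members was 0.19 log2 units, against 0.14 for all names, and -0.04 and 0.06 with quantile normalisation. The members' median was 0.40 without H0 replicate 1, 0.08 without H0 replicate 4, 0.11 without H0 replicate 5 and 0.13 without H2-3 day 1 replicate 3. It was 0.52 with scan day and 0.31 with slide as a block. For 20 members the H2-3 day 1 arrays did not overlap the H0 arrays, which held for 18.8% of all names.

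XLOC_l2_007062 showed the largest difference. It lies at chr19:43865321-43865380 on the plus strand, 319 bases from the probe of CD177 on the same strand. The array describes it as NB1 glycoprotein, another name for the neutrophil surface protein that CD177 encodes. Its level was -1.73, 1.22, 4.02, 0.74 and -0.18 in H0 and 6.12, 4.73, 4.08, 4.54 and 4.48 in H2-3 on day 1. Every H2-3 day 1 array lay above every H0 array, although the third H0 animal came within 0.1 units of the lowest H2-3 day 1 array. The difference was 3.98 ± 0.75 (SE, n = 5 and 5; limma adjusted p = 0.000651), or 15.7-fold. It was 3.34 (adjusted p = 0.00222) without H0 replicate 1, the lowest array.

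XLOC_l2_012911, at chr6:24797619-24797678 on the minus strand, was next. It stood at 2.30, 3.07, 3.11, 2.56 and 3.09 in H0 and at 5.38, 5.55, 4.45, 5.43 and 4.41 in H2-3 on day 1, a difference of 2.22 ± 0.36 (limma adjusted p = 0.000207). The groups were separated by more than 1 unit.

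The smallest p in this comparison belonged to XLOC_l2_009029, at chr21:30595041-30595100 on the plus strand. Its levels were 3.42, 4.07, 4.25, 4.77 and 3.85 in H0 and 5.72, 5.28, 5.64, 5.48 and 5.70 in H2-3 on day 1. The difference was 1.49 ± 0.20 (limma adjusted p = 7.1e-05), with no overlap, and the irradiated arrays were the less scattered (SD 0.18 against 0.50). The letters of this probe resemble part of the coding sequence of GAPDH, a glycolytic enzyme. No transcript set was used to check this, so which transcript the probe reads was not tested.

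XLOC_l2_012081 rose by 1.49 ± 0.29 (adjusted p = 0.000778). It lies at chr5:70298941-70299000 on the minus strand, 618 bases from the probe of NAIP, an innate immune sensor of bacterial proteins in myeloid cells. Its levels in H0 were 2.20, 2.95, 3.72, 2.67 and 2.17, and those in H2-3 on day 1 were 4.55, 3.80, 4.65, 4.03 and 4.11, so the groups did not overlap. A second probe of this name, also above background on all arrays, stood at a mean of -1.04 and went the other way, by -0.51, so the 2 probes disagree.

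Other members that rose included XLOC_l2_009292 by 1.34 ± 0.28 (limma adjusted p = 0.00125), XLOC_l2_002761 by 1.25 ± 0.32 (0.00544) and XLOC_001246, the last name inside the edge, by 1.22 ± 0.22 (0.000455). A second probe of XLOC_l2_009292 stood at 1.54 and differed by -0.04. A second probe of XLOC_l2_002761 stood at 5.30 and differed by 1.22, but it shares 59 bases with the first and is no separate reading. XLOC_l2_015812 and XLOC_l2_001889 rose by 0.78 ± 0.18 and 0.74 ± 0.17. Of 12 further probes of members called in this comparison that passed the filter, 8 differed in the direction of the member and 4 in the other. The 8 include that probe of XLOC_l2_002761 and a probe of XLOC_002730 that shares 38 bases with the probe used.

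Among the brightest names changes were small. XLOC_l2_012953 had 11.19, 11.40, 11.29, 11.40 and 11.18 in H0 and 12.07, 11.82, 11.40, 11.88 and 11.73 in H2-3 on day 1, a difference of 0.49 ± 0.17 (limma adjusted p = 0.0392) in which 4 of 5 irradiated arrays lay above all H0 arrays. HLA-J, with which its probe shares sequence, rose by 0.51 ± 0.17 (adjusted p = 0.0319). XLOC_l2_015885 differed by 0.11 ± 0.17 (adjusted p = 0.672), whereas RN18S1 fell by 1.16 ± 0.35 on the log2 scale (adjusted p = 0.0165). XLOC_l2_002910 and EEF1A1 differed by 0.14 (adjusted p = 0.635) and 0.01 (adjusted p = 0.967).

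The 4 members that fell were led by XLOC_l2_004771, at chr15:84946694-84946753 on the minus strand. Its level was 4.04, 3.21, 3.18, 3.72 and 3.42 in H0 and 1.72, 2.44, 2.50, 1.75 and 1.76 in H2-3 on day 1, a difference of -1.48 ± 0.26 (limma adjusted p = 0.000353) without overlap. XLOC_l2_015762 fell by 0.90 ± 0.19 (adjusted p = 0.00175), and likewise without overlap. The other 2, XLOC_l2_010508 and the eighth brightest name XLOC_l2_005557, fell by 0.69 ± 0.24 (0.0337) and 0.55 ± 0.20 (0.0464). Both calls were lost without H0 replicate 1 (adjusted p = 0.0797 and 0.0924), 2 or 5, without H2-3 day 1 replicate 1, 2, 3 or 4, and for XLOC_l2_005557 also without H0 replicate 4, with adjusted p up to 0.106.

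**Figure D2:**
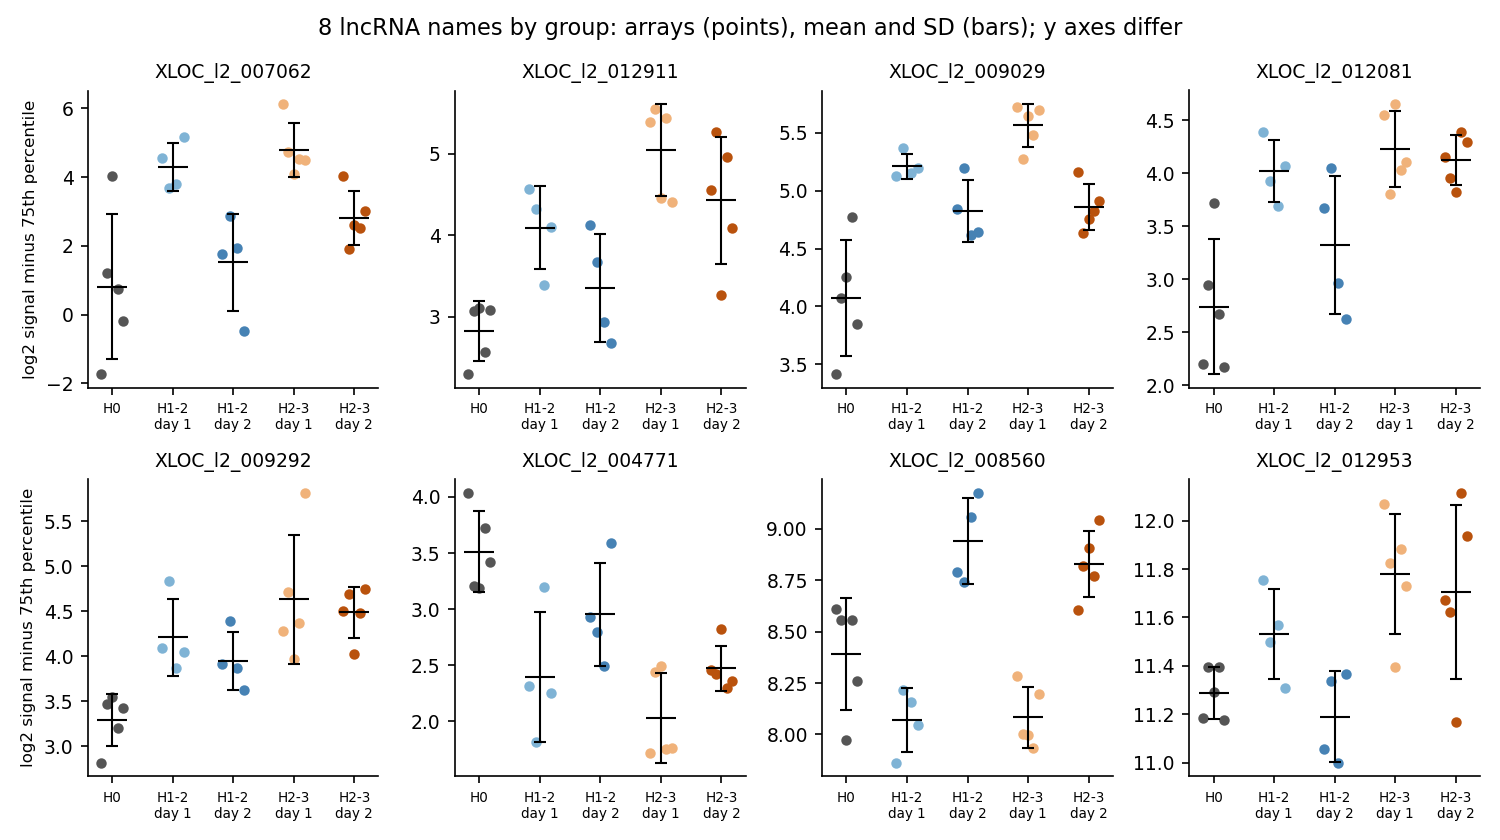
Level (log2 signal minus the array's 75th percentile) of 8 names in the 5 groups, 1 point per array with the group mean and SD. The upper panels and XLOC_l2_009292 show names that rose on day 1 in H2-3, XLOC_l2_004771 fell, XLOC_l2_008560 was higher on day 2 than on day 1, and the brightest name XLOC_l2_012953 moved by 0.49.

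Cell type markers moved strongly in the same comparison. All 17 tested neutrophil markers and 10 of 13 monocyte markers were higher in H2-3 on day 1 than in H0, by medians of 2.04 and 1.59. Lower were 14 of 17 B cell markers, 12 of 15 T cell markers and 16 of 17 natural killer and cytotoxic markers, by medians of -3.21, -2.29 and -2.71. Of 23 tested p53 targets and radiation response genes, 14 rose and 3 fell. The mean level of the 17 neutrophil markers was 2.55 to 5.59 on the H0 arrays and 5.97 to 6.69 on the H2-3 day 1 arrays, and that of the T cell markers was 2.51 to 3.29 and -0.02 to 2.06. The part of these cell types in the differences named above was not tested.

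Scan day and slide overlap with the groups. All day 1 arrays were read on the second scan day together with H0 replicates 3 to 5, and within that day the differences of H2-3 day 1 from H0 were 3.26 for XLOC_l2_007062, 2.13 for XLOC_l2_012911, 1.27 for XLOC_l2_009029 and -1.41 for XLOC_l2_004771. With scan day as a block limma called 22 members, 19 of them among the 30. Only slide 3 carried both groups, with 1 array each, and a fit blocked on slide rests on that pair: it gave 6.30, 2.30, 1.87 and -1.70 for the same names and called 4 members.

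In the milder category fewer members passed the test on day 1. Between H1-2 on day 1 and H0, 12 members differed by limma (6%, against 8.6% of all names), 10 higher and 2 lower (4.18% and 4.42% of all names), and all 12 were also among the 30 called in H2-3, a comparison that shares the H0 arrays. XLOC_l2_007062 was again first, at 4.57, 3.69, 3.79 and 5.16, a difference of 3.49 ± 0.80 from H0 (adjusted p = 0.0165), and 2 of the 4 arrays lay above all H0 arrays. XLOC_l2_012081 rose by 1.28 ± 0.31 (0.0194), XLOC_l2_012911 by 1.27 ± 0.38 (0.0418), XLOC_l2_002761 by 1.18 ± 0.34 (0.0351) and XLOC_l2_009029 by 1.14 ± 0.21 (0.0141). The 2 that fell were XLOC_l2_004771, by 1.12 ± 0.27 (0.0207), and XLOC_l2_015762, by 0.67 ± 0.21 (0.0449). For 17 members the 4 arrays did not overlap H0, which held for 10.4% of all names.

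These H1-2 calls depended on the setting and on single arrays. None of the 12 was called with scan day or slide as a block or in a fit of only these 2 groups, and none without H1-2 day 1 replicate 1. The count was 4 without H0 replicate 1, 5 without H0 replicate 4, 4 without H0 replicate 5, and 3 and 6 without H1-2 day 1 replicates 2 and 4. The split was 5 higher and 8 lower with quantile normalisation as well as by the deposited values. XLOC_l2_007062 differed by 2.78 within the second scan day (adjusted p = 0.0907 with scan day as a block). Neutrophil markers moved with these names here too, with 12 of 17 higher by a median of 1.57, and 13 of 17 natural killer and cytotoxic markers were lower; their part was not tested.

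By day 2 in H2-3, 19 members differed from H0 (9.5%, against 14.8% of all names), 17 higher and 2 lower (10.3% and 4.48% of all names), and 17 of the 19 were also called on day 1 against the same H0 arrays. XLOC_l2_012911 led with 4.55, 5.26, 3.27, 4.96 and 4.09, all above H0, a difference of 1.60 ± 0.36 (limma adjusted p = 0.00961). XLOC_007398 rose by 1.51 ± 0.40 (0.0194), XLOC_l2_012081 by 1.38 ± 0.29 (0.00866) and XLOC_l2_009292 by 1.20 ± 0.28 (0.011). XLOC_l2_004771, at 2.46, 2.42, 2.82, 2.30 and 2.36, remained below every H0 array and had fallen by 1.04 ± 0.26 (0.0145). XLOC_l2_015762 fell by 0.62 ± 0.19 (0.038). XLOC_l2_007062 was at 4.03, 1.91, 2.61, 2.52 and 3.01, which overlapped H0, and its difference of 2.00 ± 0.75 missed the threshold (adjusted p = 0.0699). Without H2-3 day 2 replicate 4 the calls of XLOC_007398 (adjusted p = 0.0656) and XLOC_l2_015762 (0.0962) were lost. Both were also lost without H0 replicate 1 (0.0553 and 0.105), XLOC_007398 also without H2-3 day 2 replicate 5, and XLOC_l2_015762 also without H0 replicate 4 or 5 or H2-3 day 2 replicate 1, 2 or 5. In 12 members the groups did not overlap, against 8.61% of all names.

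While the called members were mostly higher, the set as a whole was lower: 136 of 200 members had a lower mean on day 2 in H2-3 than in H0, by a median of -0.35 against -0.03 for all names. That median was -0.16 without H0 replicate 1, -0.21 without H2-3 day 2 replicate 5 and -0.53 with quantile normalisation. The count of calls depended on single arrays. It was 43 (18 higher and 25 lower) without H2-3 day 2 replicate 1, 7 without H2-3 day 2 replicate 4, 11 without H2-3 day 2 replicate 5 and 9 without H0 replicate 1. The split was 9 higher and 6 lower with quantile normalisation, 10 and 8 by the deposited values, and 15 and 9 when only probes above background on all arrays set the percentile. Of the markers in this comparison, 14 of 17 B cell markers (median -2.18), 6 of 17 natural killer and cytotoxic markers (-1.28) and 3 of 15 T cell markers (-0.77) were lower. Higher were 9 of 13 monocyte (1.17), 7 of 17 neutrophil (1.33) and 5 of 11 platelet markers (1.53), and the part of these cell types was not tested. All day 2 arrays were on slides and a scan day of their own, so day 2 and batch cannot be told apart. In H1-2 on day 2 no member passed the test against H0 by limma, and none of all names was called (0%). An unadjusted p under 0.05 was found for 19 of 200 members, beside 2228 of the 21128 names. There 5 members did not overlap H0, against 1.72% of all names.

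**Figure D3:**
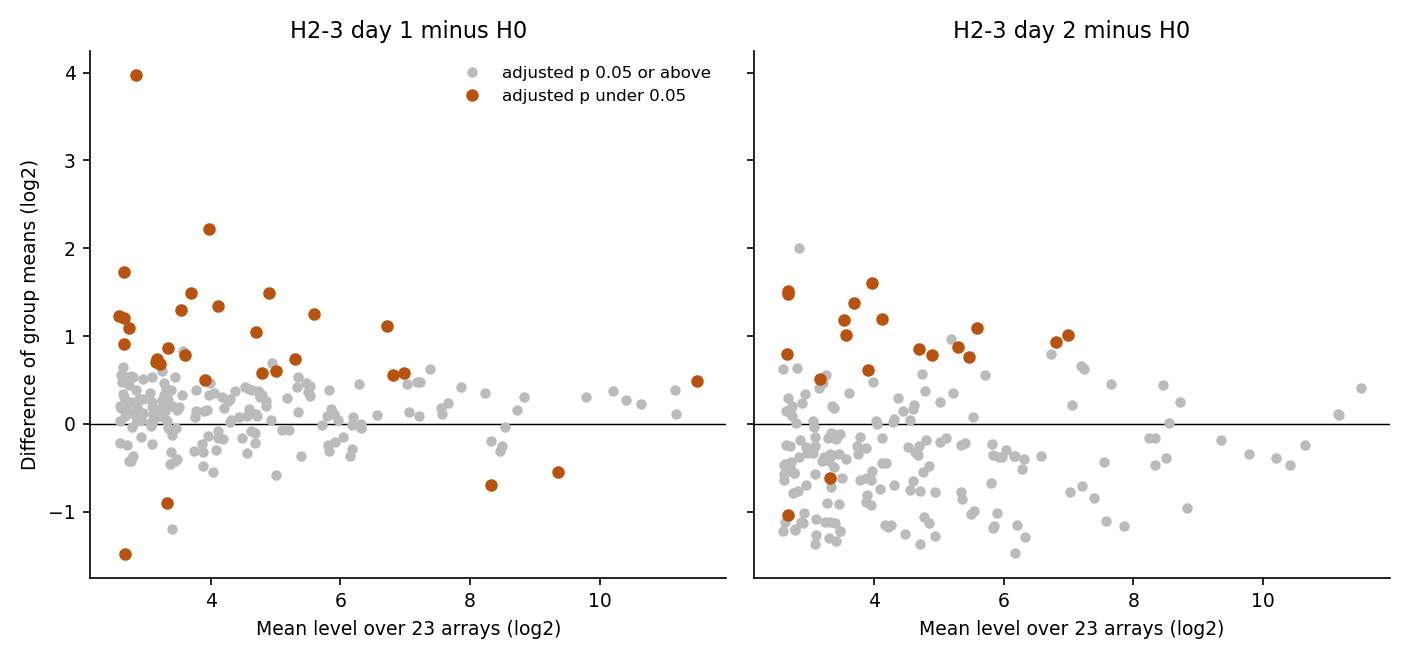
Difference of the H2-3 group from H0 (log2) against the mean level over 23 arrays for the 200 names, on day 1 (left) and day 2 (right), with names past the adjusted p of 0.05 in orange. On day 1 most points lie slightly above 0 and on day 2 the bulk lies below 0, with medians of 0.19 and -0.35, while most called names are higher on both days.

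Calls were spread over the ranks. Of the 30 called in H2-3 on day 1, 13 were among ranks 1 to 100 and 17 among ranks 101 to 200, and for H2-3 on day 2 the counts were 8 and 11. The median GC content of called and uncalled members on day 1 was the same, 45%. Across H1-2 on day 1 and H2-3 on both days, 32 members were called at least once, and 8 in all 3 comparisons, which share the H0 arrays. Such counts were not made over all names, so whether these are many or few cannot be said. The 8 were XLOC_l2_001889, XLOC_l2_002761, XLOC_l2_003156, XLOC_l2_004771, XLOC_l2_009029, XLOC_l2_012081, XLOC_l2_012911 and XLOC_l2_015762.

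No member was called between the categories. Between H2-3 and H1-2 no member passed limma's test on day 1 or day 2, and none of all names was called (0% on both days). At an unadjusted p under 0.05 were 4 and 15 of 200 members, beside 1224 and 2062 of the 21128 names. The closest approach among the leading names was XLOC_l2_012911, which was higher in H2-3 by 0.95 ± 0.38 on day 1 (adjusted p = 0.656) and by 1.07 ± 0.38 on day 2 (adjusted p = 0.508). On each day 3 of 5 H2-3 arrays lay above all H1-2 arrays. XLOC_l2_007062 differed by 0.49 ± 0.80 on day 1 and by 1.29 ± 0.80 on day 2. On slides 6 and 7, which each carried both categories on day 2, the members' median difference was 0.38 and -0.72, so the slides disagreed in sign. H1-2 replicates 1 and 2 were on slide 6 and replicates 3 and 4 on slide 7, so slide and animal cannot be told apart. The mean of 17 B cell markers on these H1-2 arrays was 0.06, 0.22, 2.75 and 2.73. On the H1-2 day 1 arrays it was 0.6, -0.07, 2.38 and 2.19. The categories did not overlap for 1 member on day 1 and 3 on day 2, against 2.06% and 1.34% of all names.

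Most members had a lower mean on day 2 than on day 1, with 1 call. In H1-2, 158 of 200 members had a lower mean on day 2 than on day 1, by a median of -0.47 (all names -0.08). In H2-3, 157 were lower, by a median of -0.49 (all names -0.03). The other long noncoding names above background on all arrays showed medians of -0.41 and -0.42. With quantile normalisation the members' medians were -0.37 and -0.43. In H1-2 limma called no member (0% of all names), with 55 of 200 at an unadjusted p under 0.05, beside 4955 of the 21128 names. In H2-3 it called 1 of 200 (0.5%, against 2.97% of all names, 1.74% higher and 1.23% lower). There 86 of 200 had an unadjusted p under 0.05, beside 5621 of the 21128 names. With the baboon as a block, which the shared numbering of both days allows, 7 were called, 1 higher and 6 lower. Without H2-3 day 2 replicate 1 the count was 68, 67 of them lower, and without H2-3 day 1 replicate 4 or H2-3 day 2 replicate 3 or 5 it was 0. Without H2-3 day 2 replicate 1 the members' median was -0.67, against -0.02 for all names, whose calls were not counted in that fit. The days did not overlap for 11 members in H1-2 and 5 in H2-3, against 10.3% and 5.56% of all names.

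The single call went upward. XLOC_l2_008560, the thirteenth brightest name, at chr20:18485441-18485738 on the plus strand, was at 8.28, 8.00, 8.00, 7.94 and 8.20 on day 1 and at 8.60, 8.82, 8.91, 8.77 and 9.04 on day 2 in H2-3. It rose by 0.75 ± 0.16 between the days (limma adjusted p = 0.0211) and was higher in 5 of 5 animals as paired by their numbers, with no overlap. In H1-2 it was at 7.86, 8.21, 8.16 and 8.05 on day 1 and at 8.79, 8.74, 9.06 and 9.18 on day 2. That difference was 0.87 ± 0.17 and missed the threshold (adjusted p = 0.0693), although these groups did not overlap either. The H0 arrays, at 8.61, 8.56, 7.97, 8.56 and 8.26, overlapped day 1 of both categories and day 2 of H2-3, and lay below day 2 of H1-2. No member and none of all names (0%) passed limma's interaction test for a change from day 1 to day 2 that differs between the categories. At an unadjusted p under 0.05 were 3 of 200 members, beside 421 of the 21128 names.

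Among the other leading names, XLOC_l2_007062 was lower on day 2 than on day 1 by 2.78 ± 0.84 in H1-2 (adjusted p = 0.132) and by 1.97 ± 0.75 in H2-3 (adjusted p = 0.106). Every day 2 array lay below every day 1 array of its category. XLOC_l2_009029 was lower on day 2 by 0.71 ± 0.20 in H2-3 (limma adjusted p = 0.052), again with all 5 arrays below those of day 1. T cell markers moved the other way between these days in H2-3, with 7 of 15 higher, by a median of 1.64, and neutrophil markers had a median difference of -0.68 with none of 17 called; their part was not tested.

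Members next to named genes were set beside those genes. Of the 29 neighbours, 25 were tested, 16 on the same strand and 9 on the opposite strand. In H2-3 on day 1 the member and its neighbour differed from H0 in the same direction in 11 of 16 same-strand pairs and in 2 of 9 opposite-strand pairs. These signs include differences near 0, such as 0.0 for XLOC_007858 and -0.04 for LOC100289019, and they can change with the scaling. The strands were not compared by a test. In 4 pairs both were called. These were XLOC_l2_007062 and CD177, which rose by 3.98 and 3.95 ± 0.68 (limma adjusted p = 0.000344), and XLOC_l2_012081 and NAIP, by 1.49 and 1.33 ± 0.41 (0.0175). XLOC_l2_002761 and LOC643733, a caspase 4 pseudogene 1893 bases away, rose by 1.25 and 1.40 ± 0.33 (0.00314). XLOC_l2_001889 and LINC00202, whose probes overlap in position, rose by 0.74 and 1.43 ± 0.36 (0.005). XLOC_l2_015762 fell by 0.90 while its neighbour TTC3P1, a pseudogene, differed by -0.34 ± 0.24 (0.318). Whether these bright probes read a separate noncoding transcript or part of the neighbouring gene's transcript was not tested.

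One further pair was picked out after its values were seen. XLOC_002730, at chr22:31372039-31372098 on the plus strand, begins 27 bases from the probe of TUG1, a widely expressed long noncoding RNA. It rose by 0.70 ± 0.24 in H2-3 on day 1 (limma adjusted p = 0.0304), while TUG1 differed by 0.22 ± 0.20 (adjusted p = 0.426). The difference between the 2 probes was not tested.

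**Figure D4:**
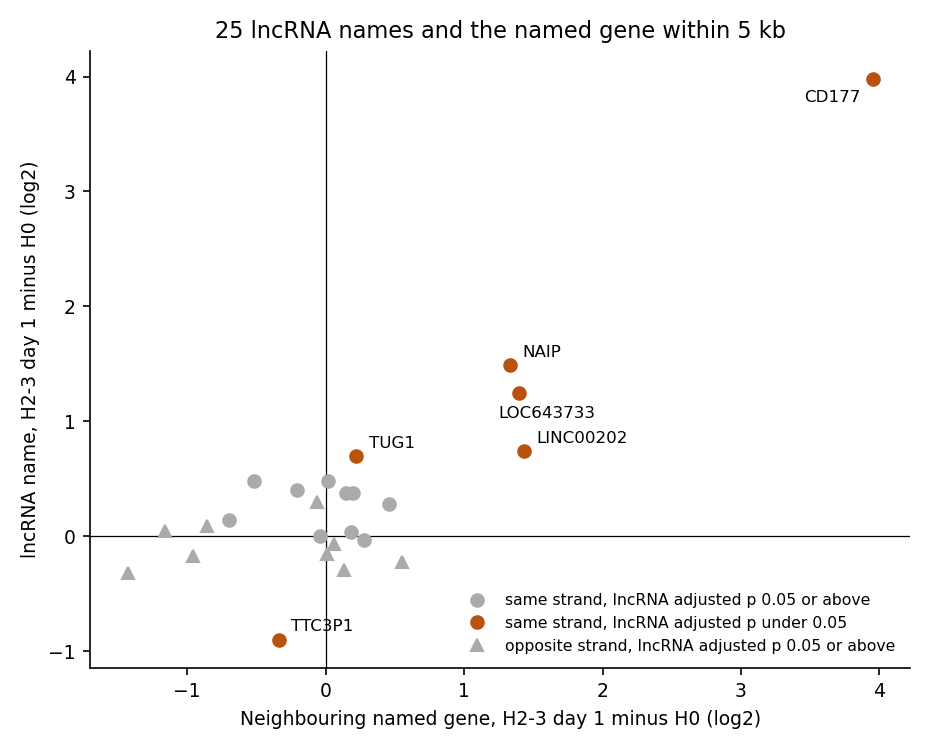
Difference of H2-3 day 1 from H0 (log2) of each long noncoding name against that of the named gene whose probe lies within 5 kb, for 25 pairs. The 6 called names, in orange with the gene's symbol, are all on the same strand as their neighbour, and XLOC_l2_007062 with CD177 lies furthest out at 3.98 and 3.95.

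Long noncoding RNAs that the array lists under a gene symbol belong to no XLOC_ name and were read as a separate list of 73, of which 33 were tested. In H2-3 on day 1, 3 of them rose and 8 fell (median -0.08, against 0.14 for all names), where 15% of all names were higher and 13.5% lower. On day 2 in H2-3, 4 rose and none fell, where 10.3% of all names were higher and 4.48% lower. The list's median there was -0.22, against -0.03 for all names. In H1-2 on day 1, 2 rose and 1 fell, where 4.18% of all names were higher and 4.42% lower. The median there was 0.11, against 0.09 for all names. NEAT1, the scaffold of nuclear paraspeckles, rose by 1.17 ± 0.28 on day 1 in H2-3 (limma adjusted p = 0.00347), by 1.17 ± 0.28 on day 2 (0.0123) and by 0.97 ± 0.30 on day 1 in H1-2 (0.0439). TP53TG1, a p53-induced long noncoding RNA, had the smallest F test p of the list but was well above background on only 12 of 23 arrays, so its size of change is not given.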

How the data were processed

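The authors deposited 1 scanner file per array, read with Agilent Feature Extraction 10.7.3.1 per the submitters' processing notes, whose processed signal is a background-subtracted intensity, and a table of log2 values of the same arrays. Each deposited log2 column correlated with its scanner file at 0.9982 to 0.9999 and had a median of 4.703; its exact centring stays unknown, and it served as an alternative. Probe positions are on hg19, per the file headers.

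From the intensity, log2 was taken, spots of a probe were averaged and the array's 75th percentile (80.9 to 156.4) was subtracted. On single arrays 41.4 to 51.3% of probes were well above background. Of 50599 probes, 27212 were well above background on at least 4 arrays, and the brightest probe of each name gave 21128 names. A single limma fit (version 3.58.1, R 4.3.3, with statmod 1.5.0) with 5 group means gave two-sided tests, Benjamini-Hochberg adjusted over all names at 0.05; the fit was tested on simulated arrays. SE is limma's moderated standard error. The number of arrays limits the precision.

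The members, gene lists and tests were chosen with earlier results of these data known. Named were the 10 brightest members, the ranks at the edge, the 10 with the smallest F test p, the 5 that rose most and 5 that fell most per comparison (3 and 3 between days), their nearest named gene within 5 kb and 2 genes of a list. In a comparison with fewer called members in a direction, all of these could be named. One member that this rule names is counted but not reported here.

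Titles number the baboons within each group. Within a category the same number on both days was taken as the same animal, which pairs the day comparisons. Deviations of arrays paired in this way correlated at 0.05 to 0.44. Arrays that share a number with H0 or between categories gave -0.33 to 0.51, so the pairing rests on the titles and not on these correlations. Alternatives were quantile normalisation, another percentile, normexp background correction (offset 50), the deposited table, 2 filters, blocks for slide, scan day and replicate, a fit of only the groups compared, and leaving out each array.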

Additional observations from a re-analysis of the deposited data

Results flagged for a closer look

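Among 25 named members and the set's median, each examined in the 5 groups (130 groups of values), 3 values stood far from the rest of their group, and chance alone flags about 1 in 20 groups. XLOC_l2_015885, which shares bases with 18S ribosomal RNA, was 11.02 on H1-2 day 1 replicate 1 against 11.24 to 11.26 on the other arrays of that group. XLOC_013489 was 10.7 on H2-3 day 1 replicate 5 against 10.88 to 10.93 on the other 4. XLOC_l2_007876 was 9.98 on H2-3 day 1 replicate 1 against 8.24 to 8.73 on the other 4, a gap of over 1 log2 unit.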

How the results depend on the processing

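The count of members called across the 5 groups (36) was 23 with slide as a random block, which was chosen after seeing the data, and 68 with the baboon as a random replicate block. Leaving out each array gave 23 to 80, with 80 without H1-2 day 2 replicate 3, 72 without H2-3 day 2 replicate 1, and 23 without H2-3 day 1 replicate 3 or 4 or H2-3 day 2 replicate 4 or 5. For H1-2 day 1 against H0 (12), the count was 6 with no filter and 0 when slide or scan day was a block or only the groups compared were fitted, and 0 to 18 over single arrays. For H2-3 day 1 against H0 (30), it was 4 with slide as a block and 19 to 30 over single arrays, with 19 without H0 replicate 5. For H2-3 day 2 against H0 (19), it was 12 in a fit of only the groups compared and 7 to 43 over single arrays. For H2-3 day 2 against day 1 (1), it was 2 with names above background on all arrays, 0 in a fit of only the groups compared, 7 with the replicate block (baboon) and 0 to 68 over single arrays. For H1-2 day 2 against day 1 (0), it was 1 with normexp and 1 in the deposited table, and 0 to 3 over single arrays, with 3 without H1-2 day 2 replicate 2. H1-2 day 2 against H0, both comparisons of the categories and the difference of the day changes stayed at 0 under each alternative, over single arrays included (0 to 0). The cause of these moves was not tested, except that smaller fits hold fewer arrays. Calls over all names were not counted under the alternatives, so whether they moved alike is not known.

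Slide and scan day as fixed blocks give no value for comparisons of day 2 with H0 or with day 1, since these share no slide or scan day. The replicate number shared with H0 or between categories only names an animal; as a block it called 8, 30 and 23 members for H1-2 day 1, H2-3 day 1 and H2-3 day 2 against H0. None of the called differences of the named members changed sign under the alternatives. Small differences that were not called were not followed across the alternatives.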

Other observations

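The shared movement of the bright long noncoding probes across arrays was also seen in probes of genes whose products belong to other tissues; these genes were chosen after their values were seen. LALBA, the milk protein alpha-lactalbumin, CRYAA, a lens crystallin, and EVX1, a homeobox gene of the embryo, were all well above background on all 23 arrays. LALBA stood at 5.38 on H0 replicate 1 and at 1.55 on H2-3 day 2 replicate 5, the arrays on which the 200 names had their highest and lowest median. CRYAA stood at 6.63 and 2.84 on these arrays, and EVX1 at 7.41 and 4.20. On the H1-2 day 2 arrays LALBA was 2.59, 2.79, 4.95 and 3.88, in the order of the members' medians of 3.51, 3.59, 4.44 and 3.96. The beta-globin gene HBB was 12.47 and 12.49 on H0 replicate 1 and H2-3 day 2 replicate 5, so its level was alike on these 2 arrays. What these probes bind in baboon blood was not tested.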
